A study of Mus musculus with 9 samples.

Results

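The genes described here are the 8 mouse genes linked to the antipsychotic drug amisulpride in synovial fibroblasts (SFs), out of 49548 genes in the deposited tables. They were taken by gene symbol and fall into 2 classes. Drd2, Drd3 and Htr7 encode the receptors that amisulpride is known to block, and Ascc3, Sec62, Romo1, Kif5c and Cdc42 encode the 5 proteins that the study kept as binding candidates after a pull-down with amisulpride-like probes. All 8 symbols were found, each on 1 row. RNA was measured by 3′ mRNA sequencing in SFs cultured from ankle joints of mice of mixed CBA C57BL/6J background, aged 8 weeks, with 3 wild-type (WT) libraries, 3 libraries of untreated hTNFtg SFs and 3 libraries of hTNFtg SFs given infliximab, a TNF-blocking antibody, at 1 µg/ml for 48 hours. The hTNFtg mouse carries a human TNF transgene and develops polyarthritis, and every hTNFtg library, treated or not, carries that transgene. According to the labels the WT and hTNFtg controls had no treatment, though vehicle is named in the methods. No library here was treated with amisulpride. CD45+ cells had been depleted at passage 1, and the methods call the 3 libraries of a group biological replicates. The labels do not say whether they came from separate animals or cultures, so the tests measure the spread between these libraries.

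DRD2 and DRD3 are dopamine receptors that act through inhibitory G proteins and lower cyclic AMP, while HTR7 is a serotonin receptor that acts through the stimulatory G protein and raises it. They are best known from neurons, where their ligands are made and cleared by a dedicated set of enzymes and transporters. The binding candidates work in other compartments: a helicase of the ASC-1 complex (ASCC3), a partner of the protein channel of the endoplasmic reticulum (SEC62), a small inner-membrane protein of mitochondria (ROMO1), a motor of microtubule transport (KIF5C) and a small GTPase that shapes actin (CDC42).

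In the mm10 coordinates of the tables, Drd2 lies on chromosome 9 from 49340627 to 49408177, Drd3 on chromosome 16 from 43762221 to 43822932 and Htr7 on chromosome 19 from 35958734 to 36057507 on the minus strand. No other annotated gene overlaps Drd2 or Htr7, so their reads do not compete with those of a neighbour, and a miRNA gene within Drd3, Gm25996, was at 0 throughout. The RefSeq promoter windows (GRCm38.p6), which run from 250 bases before to 50 bases after the start and were matched for all 8 genes, differ in their CG dinucleotides. Htr7 has 46, Drd2 23 and Drd3 2, against a median of 7 over 32851 windows of the same length, and 98.4% of these windows have fewer than that of Htr7. Among the candidates the window holds 33 CG dinucleotides at Ascc3 and at Romo1, 22 at Cdc42, 14 at Kif5c and 4 at Sec62. The first 100 bases of the 3 receptor windows, from 250 to 151 bases before the RefSeq start, are shown 5′ to 3′ on the strand of the gene with CG in capitals, because they let the 3 receptors be compared by sequence. They cover chr9:49340153-49340252, chr16:43761971-43762070 and chr19:36057511-36057610 in turn, and nothing about their use in SFs was measured. The GENCODE annotation starts Drd3 earlier, at 43754026, so the Drd3 stretch lies within that gene span.
Drd2: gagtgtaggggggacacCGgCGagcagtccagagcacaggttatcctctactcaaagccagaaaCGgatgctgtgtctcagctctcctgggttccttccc
Drd3: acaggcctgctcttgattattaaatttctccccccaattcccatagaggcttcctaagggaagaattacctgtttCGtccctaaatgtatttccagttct
Htr7: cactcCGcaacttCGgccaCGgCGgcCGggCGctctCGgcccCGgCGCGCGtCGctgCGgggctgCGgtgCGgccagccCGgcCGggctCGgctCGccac

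The deposited values are counts that the authors normalized with 1 factor per library and rounded, and what 1 read is worth was estimated from the gaps between the values. By this estimate the 9 libraries held 44512767 reads on genes, between 3829156 and 9015602 in 8 of them and 613348 in hTNFtg replicate 1. A floor of 3 reads corresponds to 1.60 to 3.31 normalized counts in those 8 libraries and to 18.7 in hTNFtg replicate 1, so this library cannot show a gene at a low level. Of 4 cartilage genes the summed normalized count was 4440 to 7387 in WT, 374 to 937 in hTNFtg and 622 to 1990 with infliximab. Most of this sum was 1 gene, Comp, in every library, and another of them, Col2a1, overlapped between the groups. Of 9 leukocyte and macrophage genes it was 193 to 656, 3111 to 6420 and 2015 to 4109. The sum of 9 fibroblast genes was 42361 to 51707, 38117 to 45882 and 35792 to 42131. Of these 9 genes, 5 had a higher and 4 a lower mean log2 value in hTNFtg than in WT. Pdpn, a membrane protein used in the study to sort SFs, was higher in every hTNFtg library, at 852 to 982 in WT, 1987 to 5582 in hTNFtg and 2460 to 2862 with infliximab. Thy1 (CD90) was higher there too, at 354 to 414, 527 to 797 and 542 to 612. Col1a1 was lower in every hTNFtg library, at 16872 to 23868, 14635 to 16542 and 12251 to 15004. A sum of 7 hepatocyte genes stood at 694 in infliximab replicate 3 and at 1 to 24 in the other 8 libraries. In bulk RNA fewer cells of a type and less RNA per cell cannot be told apart, and this holds for every level below.

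The study asked whether the known receptors of amisulpride are present in SFs. Drd2 was at 0 in each of the 9 libraries, and so was Drd3. A count of 0 among 16036529 WT reads allows up to 0.187 RPM (reads scaled to the total on genes), taking 3 reads as the limit. The same limit is 0.208 RPM in untreated hTNFtg SFs, 0.213 RPM with infliximab, and 0.0674 RPM over all 9 libraries. These limits cover counting error only, and both dopamine receptors were therefore not detectable at this depth in any group. With no read in any library, neither gene entered the comparisons.

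Htr7, the third receptor, was detected in WT SFs. Its normalized count was 15, 29 and 26 in WT replicates 1, 2 and 3, 0, 2 and 2 in untreated hTNFtg SFs, and 3, 4 and 1 with infliximab. Every WT library lay above every hTNFtg library, treated or not, as in 2.87% of the 28522 genes tested in hTNFtg versus WT, while the untreated and the infliximab-treated libraries overlapped. In reads, Htr7 had 15, 33 and 39 in WT, 0, 2 and 4 in untreated hTNFtg and 3, 4 and 1 with infliximab, so in hTNFtg SFs it stood at or beside the floor. Pooled over libraries this is 5.42 RPM in WT (95% exact Poisson interval 4.35 to 6.69), 0.416 (0.153 to 0.906) in untreated hTNFtg and 0.569 (0.246 to 1.12) with infliximab, intervals that cover counting error only.

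**Figure D1:**
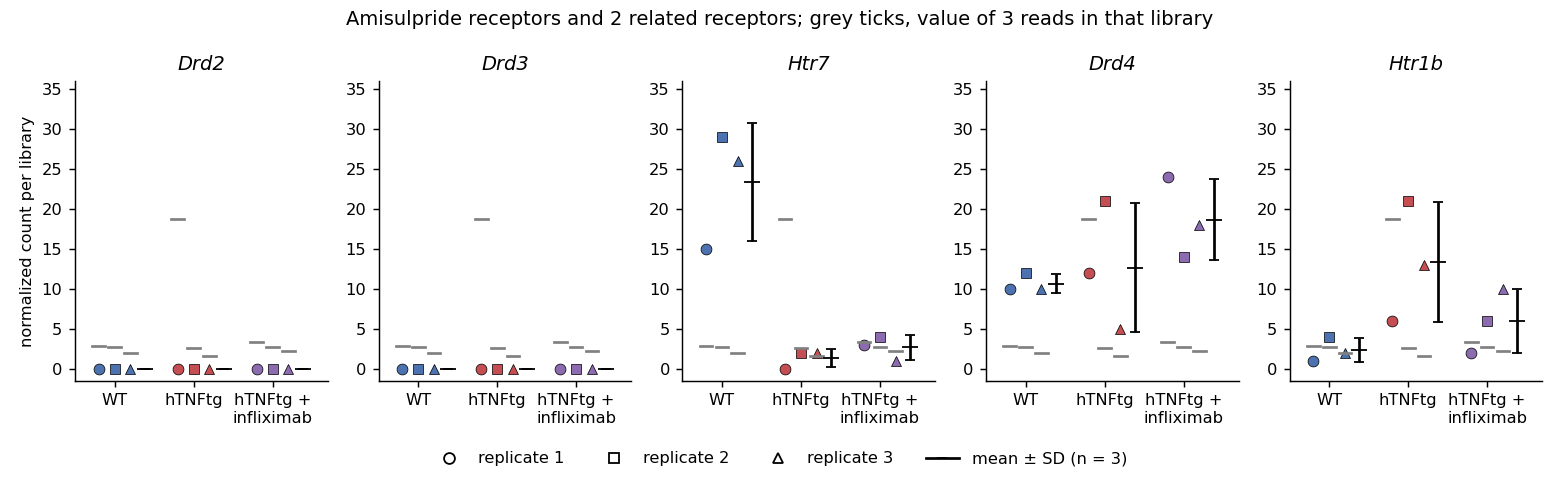
Normalized count per library of the 3 amisulpride receptors and of 2 related receptors, Drd4 and Htr1b, in the 3 groups. Points are libraries, black bars are the mean ± SD of 3 libraries, and grey ticks mark what 3 reads are worth in that library. Drd2 and Drd3 are at 0 throughout, Htr7 is at 15 to 29 in WT and at 0 to 4 in the 6 hTNFtg libraries, and the tick of hTNFtg replicate 1 is at 18.7.

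In hTNFtg versus WT SFs, Htr7 fell by 3.50 on the log2(normalized count + 1) scale (standard error 0.83), from 23.3 ± 7.37 (SD, n = 3) to 1.33 ± 1.15 (SD, n = 3). With 5 added in place of 1 the log2 fold change was -2.14, and with 0.5 it was -3.97. The study's methods call a gene at a P below 0.05 together with a 2-fold difference, a rule applied here to limma's unadjusted P. Htr7 passed it, as did 6.39% of 28522 genes. Of all genes tested, 3.04% passed by falling. Genes whose libraries all lay below WT made up 5.8%. The Benjamini-Hochberg adjusted p of limma was 0.121, and 0.48% of genes had one below 0.05, a count of 137 that fell to between 1 and 44 when any 1 library was left out. Htr7 was the only one of the 6 detected genes of the set to be called. The pooled RPM of WT was 13.0 times that of untreated hTNFtg (95% counting interval 5.75 to 36.5), and 12.5 times without hTNFtg replicate 1, in which the WT level would have given 3.75 reads. Over 10 alternatives to this fit the adjusted p of Htr7 ran from 0.000893 with edgeR on approximate reads to 0.478 with the replicate block, and 4 of them were under 0.05. In those 4 the count over all genes was higher too, at 917 with edgeR (3.22%), 1004 with array weights, 461 with a robust prior and 381 with all 9 libraries together, and with the replicate block it was 0.

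Infliximab-treated hTNFtg SFs were also compared with WT, a comparison that shares the WT libraries with the first. Htr7 fell by 2.78 on the same log2 scale (standard error 0.56, adjusted p = 0.066 in limma), to 2.67 ± 1.53 (SD, n = 3). It passed the rule, as did 6.81% of 28243 genes, and 2.95% of genes passed by falling. All its treated libraries lay below WT, which held for 7.07% of genes, and 0.74% of genes had an adjusted p under 0.05, a count of 209 that fell to 0 or 1 when any 1 library was left out. Over 10 alternatives the adjusted p of Htr7 ran from 0.000165 with edgeR to 0.407 with the replicate block, and 4 were under 0.05. In those 4 the count over all genes was 1321 with edgeR, 1182 with a robust prior, 488 among genes with a mean of at least 10 and 378 with array weights. With the replicate block it was 0. Between infliximab-treated and untreated hTNFtg SFs, with 8 and 6 reads in all, the ratio of RPM was 1.37 with an interval of 0.416 to 4.78, and Htr7 was not called (log2 fold change 0.72, 95% interval -1.07 to 2.50).

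Both falls of Htr7 went with a fall of the cartilage genes Comp and Acan and a rise of 8 of the 9 leukocyte and macrophage genes, each past the rule. Comp, a cartilage matrix protein, was at 5353, 4373 and 7288 in WT, 299, 848 and 550 in hTNFtg and 1933, 1355 and 573 with infliximab. Acan, the main cartilage proteoglycan, was at 5 to 16 in WT and at 0 to 4 in hTNFtg libraries of both kinds, whereas Col2a1, the collagen of cartilage, was at 51 to 94 in WT, 37 to 88 in hTNFtg and 49 to 133 with infliximab, and Matn1 was at 0 in WT and untreated libraries. Lyz2, the lysozyme of macrophages, was at 43 to 277 in WT, 2284 to 5356 in hTNFtg and 1277 to 2672 with infliximab. Among 9 neuron genes, summing to 166 to 192 in WT and 198 to 601 in hTNFtg and 275 to 387 with infliximab, Stmn2 was at 5, 75 and 63 in WT and at 0 to 15 in the hTNFtg libraries, and Nefl and Nefm were at 0 to 5 everywhere. Tubb3, a tubulin of the same list, went the other way and was past the rule against WT in both, at 121, 95 and 63 in WT, 112, 244 and 570 in hTNFtg and 331, 236 and 339 with infliximab. Over 5 Schwann cell genes the sum was 105 to 186 in WT, 96 to 115 in hTNFtg and 66 to 101 with infliximab. Of these genes S100b fell past the rule against WT in both (log2 fold changes -1.78 and -1.30), at 82 to 132 in WT and 19 to 68 in the hTNFtg libraries, while Mbp rose past it in both, from 6 to 8 to 15 to 33. The part of any of these cell types in the level of Htr7 was not tested.

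The other receptors of both families were mostly near the floor. Of 3 further dopamine receptors, Drd4, which like Drd2 acts through inhibitory G proteins, was at 10, 12 and 10 in WT, 12, 21 and 5 in hTNFtg and 24, 14 and 18 with infliximab, and was not called in any comparison. Its values overlapped between WT and untreated hTNFtg SFs, whereas all infliximab libraries lay above all WT libraries, as in 7.14% of genes. Its log2 fold change with infliximab versus WT was 0.73 (95% interval -0.19 to 1.65). Drd1 and Drd5, receptors that raise cyclic AMP, never exceeded 4 normalized counts. Drd1 was past the rule in infliximab-treated hTNFtg versus WT, but with 1, 2 and 1 against 0 in each treated library no fold is given.

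Of 13 further serotonin receptors, 8 could be tested in hTNFtg versus WT, and 1 was called, against 6.39% of all genes. Htr1b, an inhibitory receptor, was at 1, 4 and 2 in WT, 6, 21 and 13 in hTNFtg and 2, 6 and 10 with infliximab. It was higher in hTNFtg than in WT SFs by 2.06 on the log2 scale (standard error 0.85, limma adjusted p = 0.559), the opposite sign to Htr7, although 6 in hTNFtg replicate 1 is 1 read and the call was kept in 2 of the 6 fits without 1 library. Htr1d was at 0 to 4 over all libraries, and Htr1a, Htr1f, Htr2a, Htr2b, Htr2c, Htr4 and Htr5a at 0 to 2. Htr3a, Htr3b, Htr5b and Htr6 were at 0 in every library.

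Of 13 genes that make, carry and break down monoamines, 10 could be tested in hTNFtg versus WT. By the rule 4 of the 10 were lower, against 3.04% of all genes, and 0 were higher. Slc6a2, the noradrenaline transporter, was at 19, 26 and 42 in WT, 0, 3 and 2 in hTNFtg and 0, 13 and 1 with infliximab. Maob, a monoamine oxidase of the mitochondrial outer membrane, was at 57, 111 and 89, then 19, 27 and 19, then 33, 38 and 52. Ddc, the decarboxylase that makes dopamine and serotonin from their precursors, was at 22, 20 and 21, then 6, 7 and 10, then 8, 7 and 5, where 6 in hTNFtg replicate 1 is 1 read. In each of these genes all WT libraries lay above all 6 hTNFtg libraries, as in 2.87% of all genes. Against untreated hTNFtg, Slc6a2 and Maob stayed past the rule without any 1 library, whereas Ddc lost its call in 4 of the 6 such fits.

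In limma the log2 fold changes in hTNFtg versus WT were -3.64 for Slc6a2 (adjusted p = 0.104), -1.90 for Maob (adjusted p = 0.0871) and -1.37 for Ddc (adjusted p = 0.638). With infliximab versus WT they were -3.23, -1.02 and -1.54, with adjusted p of 0.164, 0.2 and 0.163. Maob kept its call in that comparison in 2 of the 6 fits without 1 library (-1.28 to -0.81), and lost it with a pseudocount of 5. In edgeR Slc6a2 and Maob had an adjusted p under 0.05 in both comparisons, where 3.22% and 4.68% of all genes did. The second value of Slc6a2 was -4.33 without infliximab replicate 2, the library at 13, and -2.43 without infliximab replicate 1. The fourth called gene, Tph2, a tryptophan hydroxylase, was at 4, 3 and 2 in WT and at 0 in each untreated library, so no fold is given. Slc18a1, a vesicle carrier, was past the rule in infliximab versus WT at 2, 2 and 4 against 0 in WT. Th and Dbh, the enzymes before and after dopamine, and Slc6a3, the dopamine transporter, were at 0 in all 9 libraries. Maoa, the other monoamine oxidase, was at 84 to 206 and was not called in any comparison.

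**Figure D2:**
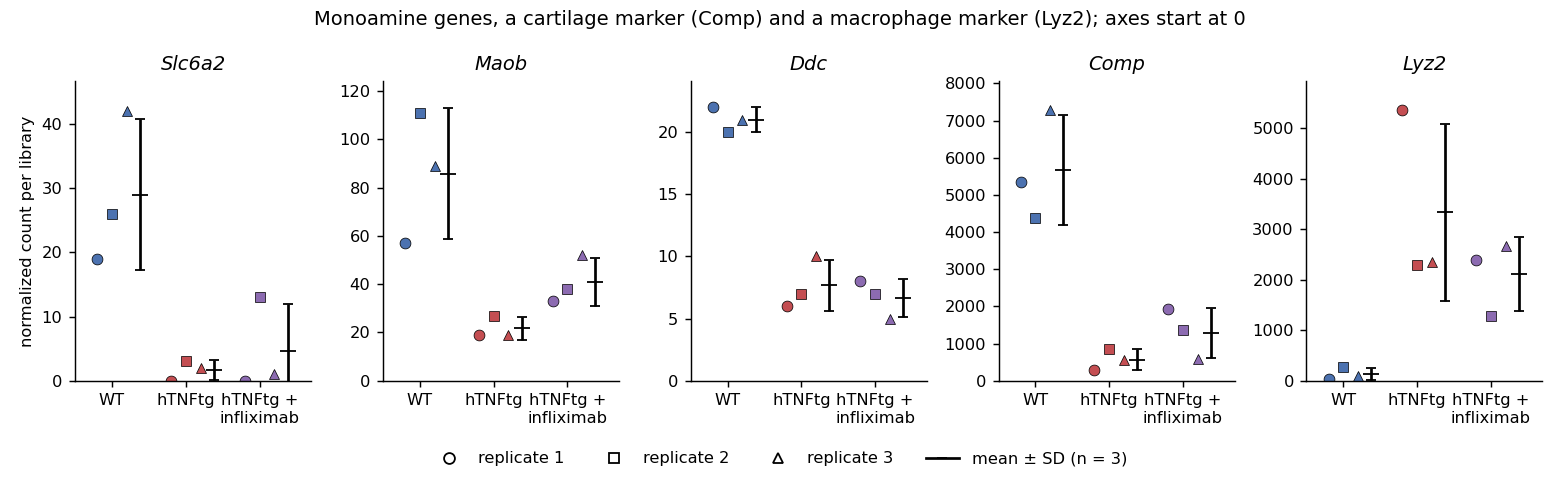
Normalized count per library of 3 monoamine genes (Slc6a2, Maob, Ddc), of the cartilage gene Comp and of the macrophage gene Lyz2, with points for libraries and black bars for the mean ± SD of 3 libraries. The 3 monoamine genes and Comp are highest in the WT libraries and Lyz2 is lowest there, at 43 to 277.

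Of 16 genes for G proteins and cyclases on which these receptors act, 15 could be tested and Adcy8 was at 0 in every library. Gnai2, an inhibitory subunit, was at 666 to 1327 over the 9 libraries and Gnas, the stimulatory one, at 758 to 2192. Of the 15, 1 was called by limma in each comparison. In edgeR 1, 1 and 3 were called in hTNFtg versus WT, infliximab versus untreated and infliximab versus WT. There 8.6%, 4.3% and 7.42% of all genes passed in edgeR, and the 3 were Adcy4, Adcy7 and Gnao1. Adcy7, a cyclase, was raised in hTNFtg versus WT by 1.42 on the log2 scale (adjusted p = 0.421) from 43 to 63 in WT to 299, 131 and 60, which overlap, and in infliximab versus WT by 1.07 (adjusted p = 0.107) to 128, 101 and 88. The first call was kept in 1 of the 6 fits without 1 library (0.84 to 1.99) and the second in 3 of 6. In edgeR Adcy7 had an adjusted p under 0.05 in both comparisons with WT, where 3.22% and 4.68% of all genes did. Adcy6, another cyclase, was raised with infliximab versus untreated by 1.20 (adjusted p = 0.803). The receptor, monoamine, G protein and cyclase lists together had 2 raised and 4 lowered of 36 genes tested in hTNFtg versus WT, or 16.7% against 6.39% of all genes, and the called genes other than Maob and Adcy7 were all under 50 normalized counts in every library. With infliximab versus untreated 1 of 32 (3.12%) was called against 2.43% of all genes, and with infliximab versus WT 7 of 37 (18.9%) against 6.81%. Of the called genes against WT with infliximab, Drd1, Tph2 and Slc18a1 never exceeded 4 normalized counts, and the calls of Drd1 and Tph2 were lost in edgeR. The lists were chosen with earlier results of these data known, so these shares, like those of the single lists, are descriptions and not tests.

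The 5 binding candidates were above the floor in all 9 libraries, and none of them was called in any of the 3 comparisons by limma or by edgeR. At an unadjusted P below 0.05 alone, limma picked Cdc42 and edgeR picked Sec62, each with infliximab versus WT, where 11.9% and 13.4% of all genes had such a P. In hTNFtg versus WT these shares were 7.72% (limma) and 10.2% (edgeR), and with infliximab versus untreated 3.59% and 6.08%. The rule with its fold was passed in edgeR by 8.6%, 4.3% and 7.42% of all genes in hTNFtg versus WT, infliximab versus untreated and infliximab versus WT. This differs from the receptors, of which 2 had no read. In hTNFtg versus WT SFs the log2 fold changes ran from -0.30 for Kif5c to 0.49 for Cdc42. With infliximab versus untreated, where 2.43% of 28540 genes passed the rule, they ran from -0.46 for Kif5c to 0.32 for Romo1. That background count, 693 genes (426 raised, 267 lowered), was 418 to 1411 when any 1 library was left out, the highest being 481 raised and 930 lowered without hTNFtg replicate 1 and the lowest without infliximab replicate 2. With infliximab versus WT they ran from -0.76 for Kif5c to 0.43 for Cdc42.

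**Figure D3:**
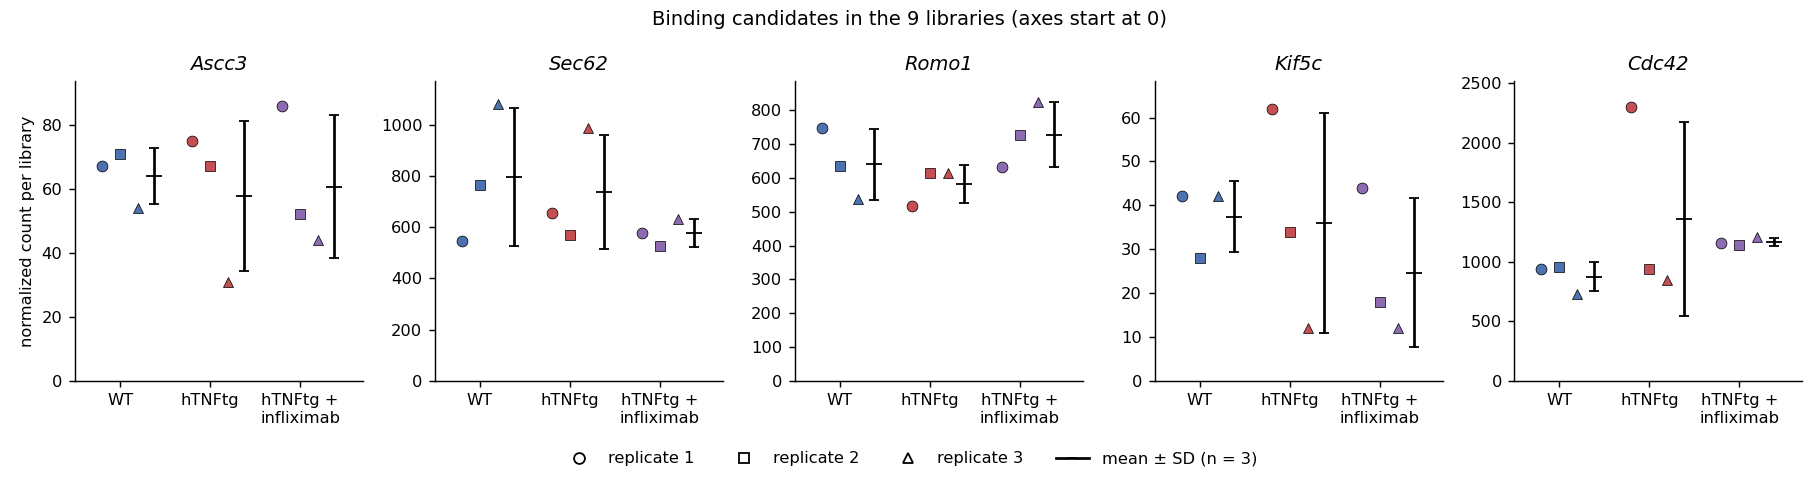
Normalized count per library of Ascc3, Sec62, Romo1, Kif5c and Cdc42 in WT, untreated hTNFtg and infliximab-treated hTNFtg SFs, each panel with its own axis from 0. Points are libraries and black bars the mean ± SD of 3 libraries. Cdc42 in hTNFtg replicate 1 stands apart at 2298, and the Kif5c libraries of hTNFtg SFs spread from 12 to 62.

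Ascc3 encodes the helicase subunit of the ASC-1 complex, which helps repair alkylated DNA and pulls apart stalled ribosomes. It lies on chromosome 10 from 50592669 to 50851202 and overlaps no other annotated gene. Its normalized count was 67, 71 and 54 in WT, 75, 67 and 31 in hTNFtg, and 86, 52 and 44 with infliximab. All groups overlapped, with means of 64 ± 8.89, 57.7 ± 23.4 and 60.7 ± 22.3 (SD, n = 3). The value of 75 in hTNFtg replicate 1 is 12 reads.

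For Ascc3 the log2 fold change was -0.23 (95% interval -1.14 to 0.67) in hTNFtg versus WT, 0.11 (-0.82 to 1.04) with infliximab versus untreated and -0.13 (-0.78 to 0.53) with infliximab versus WT. Of 13 other genes of the complex and of ribosome rescue, 0 were called in hTNFtg versus WT and 0 had an unadjusted P below 0.05, by limma and by edgeR alike. With infliximab versus untreated limma called 0, with 0 at an unadjusted P below 0.05, and edgeR called 1, against 4.3% of all genes in edgeR. With infliximab versus WT both called 1 of the 13, against 6.81% (limma) and 7.42% (edgeR) of all genes. There limma had 2 and edgeR 1 at an unadjusted P below 0.05. The gene called was Ascc1, a further subunit, at 35, 52 and 43 in WT, 31, 25 and 88 in hTNFtg and 28, 13 and 20 with infliximab, lower than in WT by 1.10 on the log2 scale (limma adjusted p = 0.24). The limma call of Ascc1 was kept in 4 of the 6 fits without 1 library and was lost with a pseudocount of 5. Ascc2, the subunit that binds ubiquitin, had means of 85, 118.7 and 77.7 in WT, hTNFtg and infliximab SFs, and Trip4, the founding subunit, of 119.7, 96.3 and 102, with neither called.

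Sec62 works beside the SEC61 channel and SEC63 in moving proteins into the endoplasmic reticulum and also acts as a receptor when that membrane is recycled by autophagy. It lies on chromosome 3 from 30792875 to 30821263. Its normalized count was 545, 764 and 1080 in WT, 654, 567 and 988 in hTNFtg, and 577, 524 and 633 with infliximab. Replicate 3 was the highest library in each group, and the groups overlapped. The log2 fold change was -0.10 (95% interval -0.87 to 0.67) in hTNFtg versus WT, -0.31 (-0.96 to 0.33) with infliximab versus untreated and -0.41 (-0.96 to 0.14) with infliximab versus WT. An antisense gene, 4933429H19Rik, overlaps Sec62 and was at 87 in hTNFtg replicate 1 and at 0 to 10 elsewhere. Whether reads were counted by strand is not given in the sources used here, so reads of the overlapping genes may be mixed.

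None of 19 other translocon genes was called in any comparison by limma or edgeR, and by both tools 1, 0 and 2 of them had an unadjusted P below 0.05 in hTNFtg versus WT, infliximab versus untreated and infliximab versus WT. Sec63, the partner of SEC62, was at 436, 440 and 384 in WT, 536, 673 and 640 in hTNFtg and 527, 527 and 442 with infliximab, higher in every hTNFtg than in every WT library, treated or not, but short of the rule in hTNFtg versus WT (log2 fold change 0.55, 95% interval -0.05 to 1.15). All untreated libraries lay above WT in 5.63% of genes, and all 6 hTNFtg libraries in 2.89%. Sec61a1, the pore subunit, was at 1183 to 2955 over all libraries, Sec61b at 424 to 849 and Sec61g at 816 to 2876. Among 8 other receptors for autophagy of this membrane, Fam134b was raised in hTNFtg versus WT by 1.45 on the log2 scale (limma adjusted p = 0.298), from 16, 30 and 21 to 62, 41 and 89. This was 1 of 8 against 6.39% of all genes, and none of the 8 was called in either comparison with infliximab.

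Romo1 encodes a small protein of the mitochondrial inner membrane that takes part in the production of reactive oxygen species and in protein import. It lies on chromosome 2 from 156144039 to 156145797 and overlaps Nfs1 on the opposite strand, which stood at 25 to 87. The normalized count of Romo1 was 749, 636 and 538 in WT, 517, 615 and 614 in hTNFtg, and 633, 728 and 825 with infliximab. All infliximab libraries lay above all untreated ones, as they did for 3.99% of genes, and they overlapped WT. The log2 fold change was 0.32 with infliximab versus untreated (95% interval -0.28 to 0.92, adjusted p = 0.803), -0.13 (-0.76 to 0.50) in hTNFtg versus WT and 0.19 (-0.24 to 0.62) with infliximab versus WT. No gene of 15 others for inner-membrane import and shape was called in any comparison by limma or edgeR, with 0, 1 and 3 (limma) and 1, 0 and 2 (edgeR) at an unadjusted P below 0.05 in the same order of comparisons.

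Kif5c encodes a heavy chain of kinesin-1, the motor that carries cargo outward along microtubules, and is best known from neurons. It lies on chromosome 2 from 49619298 to 49774778, where an overlapping pseudogene, Gm13525, was at 0 to 2. Its normalized count was 42, 28 and 42 in WT, 62, 34 and 12 in hTNFtg, and 44, 18 and 12 with infliximab. It was the most variable candidate, with the highest hTNFtg library 5.17 times the lowest, and 62 in hTNFtg replicate 1 is 10 reads. The log2 fold change was -0.30 (95% interval -1.57 to 0.97) in hTNFtg versus WT, -0.46 (-1.88 to 0.97) with infliximab versus untreated and -0.76 (-1.79 to 0.28) with infliximab versus WT. Without infliximab replicate 1 the last value was -1.26 and past the rule (adjusted p = 0.345), so the call turns on 1 library.

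The 3 kinesin-1 heavy chains stood at different levels, and 3′ reads do not grow with the length of a transcript. Kif5b, the ubiquitous chain, was at 193 ± 105 in WT, 243.3 ± 107.8 in hTNFtg and 279.3 ± 79.4 (SD, n = 3) with infliximab, above Kif5c in all 9 libraries. Kif5a, the other neuronal chain, was at 0 to 7. Of 13 other kinesin-1 and adaptor genes, 0 were called in hTNFtg versus WT and 0 had an unadjusted P below 0.05 there, by limma and by edgeR. Both tools called 1 of the 13 with infliximab versus untreated, where 2.43% (limma) and 4.3% (edgeR) of all genes passed. Klc4, a light chain, was raised there by 1.07 on the log2 scale (limma adjusted p = 0.803), from 31, 58 and 59 to 77, 98 and 134. Its call was kept in 3 of the 6 fits without 1 library and was lost with array quality weights. The light chains Klc1 and Klc2 were at 481 to 772 and 12 to 95 and not called.

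Cdc42 encodes a small GTPase that drives filopodia, polarity and adhesion. It lies on chromosome 4 from 137319696 to 137357720 on the minus strand, with an overlapping small RNA gene, Gm25772, at 0 to 1. Its normalized count was 935, 952 and 733 in WT, 2298, 936 and 844 in hTNFtg, and 1154, 1143 and 1204 with infliximab. Untreated hTNFtg values overlapped WT, with replicate 1, the shallow library, far above the others. All infliximab libraries lay above all WT libraries, as in 7.14% of genes, at 1167 ± 32.5 against 873.3 ± 121.8 (SD, n = 3).

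With infliximab versus WT the log2 fold change of Cdc42 was 0.43 (95% interval 0.03 to 0.82, limma adjusted p = 0.375), short of the fold of the rule. It was 0.49 (-0.39 to 1.37) in hTNFtg versus WT and 0.04 without hTNFtg replicate 1. With infliximab versus untreated it was -0.06 (-0.89 to 0.76), and 0.39 without that library.

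Of 20 regulators of Cdc42 tested, limma called 0 in hTNFtg versus WT, with 3 at an unadjusted P below 0.05, and edgeR called 1, Itsn1. With infliximab versus WT 2 exchange factors were raised, Arhgef7 by 1.06 on the log2 scale (adjusted p = 0.196) and Fgd2 by 1.77 (adjusted p = 0.312), the latter from 1 to 2 in WT to 3 to 14. These are 2 of 20 against 6.81% of all genes, and each call was kept in 3 of the 6 fits without 1 library. Among 31 effectors and related GTPases, 3 were raised and 1 lowered in hTNFtg versus WT, where 6.39% of all genes passed. Iqgap1, a scaffold that binds active CDC42, rose from 325, 386 and 464 to 716, 640 and 1124, a log2 fold change of 1.05 (adjusted p = 0.271). Baiap2, which bends membrane into filopodia, rose by 1.01 (adjusted p = 0.458), from 105 to 172 in WT to 168 to 435 in hTNFtg. Without 1 library the call of Iqgap1 was kept in 4 of 6 fits and that of Baiap2 in 2 of 6.

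Was, the WASP protein of blood cells, rose by 1.81 (adjusted p = 0.61), from 2 to 7 in WT to 9 to 25 in hTNFtg SFs, and with infliximab versus WT by 1.75 (adjusted p = 0.25), to 10, 14 and 21. The first call was lost in 4 of the 6 fits without 1 library and the second in 0. It is itself a leukocyte gene, and Ptprc (CD45), the marker depleted at passage 1, was at 0, 3 and 0 in WT and 31, 9 and 12 in hTNFtg. Fgd2 and Adcy7 are also used by leukocytes. The part of leukocytes in the levels of these 3 genes was not tested. Pard6b, a polarity protein, was at 5, 2 and 1 in WT at 0 in each untreated hTNFtg library and at 1, 3 and 0 with infliximab, so no fold is given against the untreated libraries. Rhoa, a related GTPase, was raised with infliximab versus untreated by 1.10 (adjusted p = 0.803), from 1034, 1910 and 3194 to 3337, 3360 and 5574, whereas Rac1 was at 774 to 1370 and was not called. The Cdc42-binding effectors Cdc42ep1, Cdc42ep2, Cdc42ep3 and Cdc42ep4 were at 118 to 262, 25 to 148, 42 to 218 and 35 to 84 and were not called in any comparison.

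**Figure D4:**
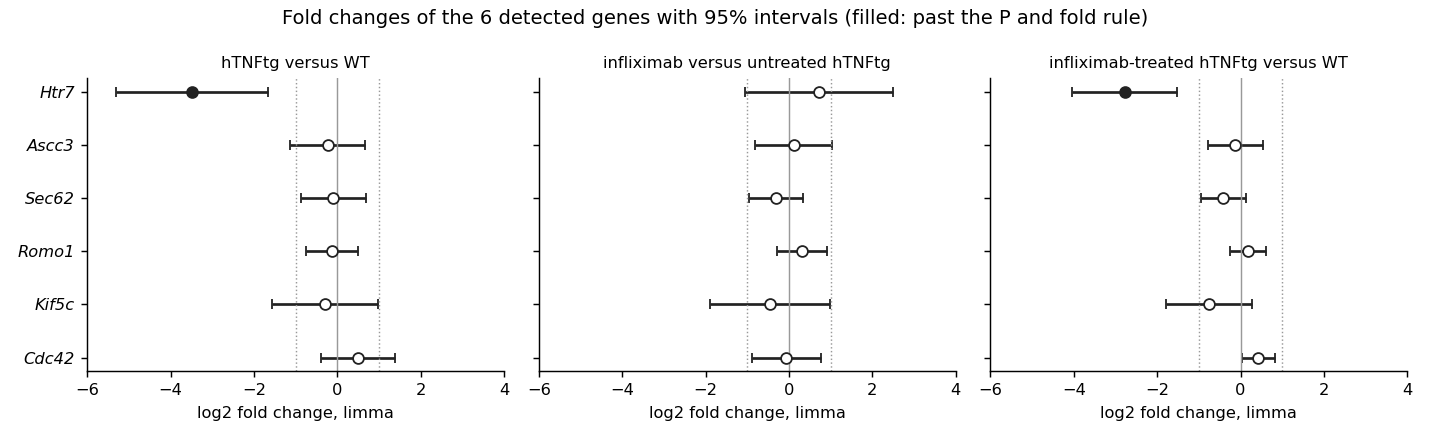
Log2 fold changes (x axis, log2 of normalized count + 1, limma) of the 6 detected genes in the 3 comparisons, with 95% intervals and dotted lines at -1 and 1. Filled points passed the P and fold rule, which only Htr7 did, at -3.50 and -2.78 against WT.

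A further protein, KCT2, was pulled down by the probes and set aside in the study as a keratinocyte protein. RefSeq lists Kct2 as a synonym of 9530068E07Rik, the symbol in the tables. That gene was at 1050, 1350 and 1156 in WT, 467, 845 and 1326 in hTNFtg, and 574, 906 and 991 with infliximab, above the floor in all 9 libraries. It was not called (log2 fold change -0.55, 95% interval -1.40 to 0.31 in hTNFtg versus WT). The sum of 5 keratinocyte genes was 7 to 28 in WT, 5 to 19 in hTNFtg and 11 to 16 with infliximab. Most of it was Krt10, at 3 to 20 in every library, and Dsp was at 0 to 9. Krt5 and Krt14 were at 0 in 8 of the 9 libraries and at 1 in WT replicate 3, and Krt1 was at 0 in all.

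Over the 7 lists of genes that work with the candidates, 4 were raised and 1 lowered of 119 tested in hTNFtg versus WT, or 4.20%, below the 6.39% of all genes. The median log2 fold change was -0.0019 against -0.0034 for all genes. With infliximab versus untreated, 2 were raised and 0 lowered, 1.68% against 2.43% of all genes. With infliximab versus WT, 3 were raised and 1 lowered, 3.36% against 6.81%. These shares too are descriptions, as the lists were chosen with earlier results known. The lowest adjusted p of limma in these lists was 0.271, 0.803 and 0.196 in the 3 comparisons. In edgeR 2 of these genes, Arhgef7 and Rhoa, had one under 0.05 with infliximab versus WT, against 4.68% of all genes, and 0 in the other comparisons.

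**Figure D5:**
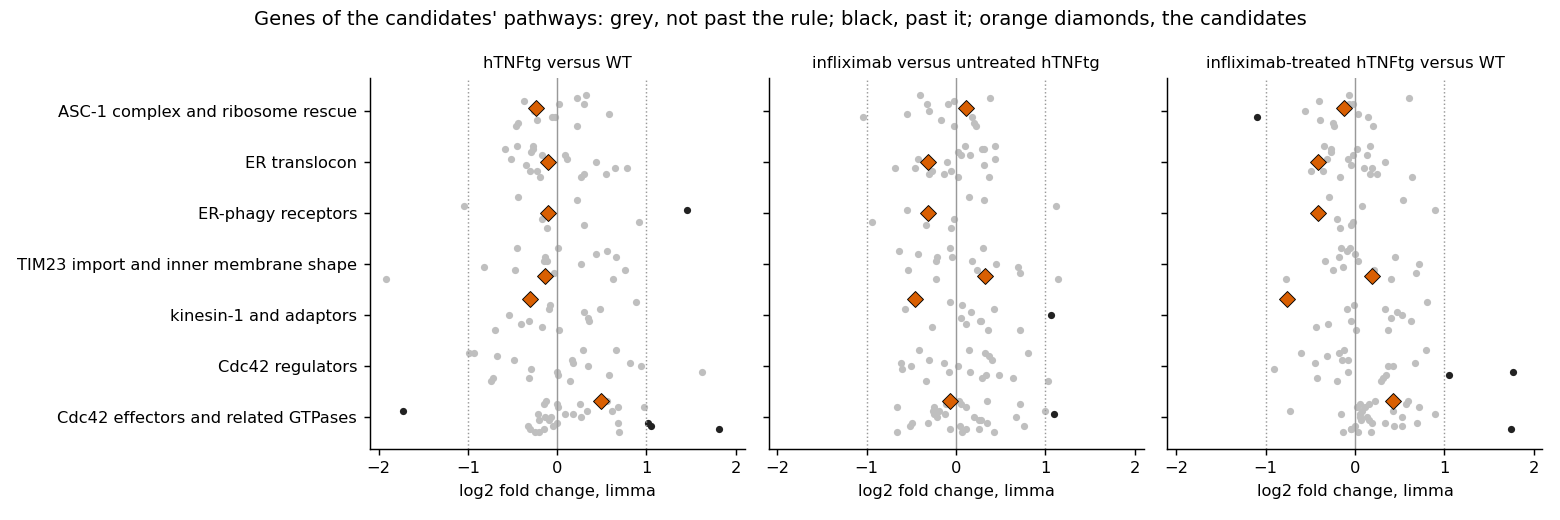
Log2 fold changes (x axis, limma) of the genes in the 7 lists around the candidates, 1 panel per comparison and 1 row per list, with dotted lines at -1 and 1. Grey points did not pass the rule, black points did, and orange diamonds are the candidates, Sec62 appearing in both lists it belongs to. The black point far left in hTNFtg versus WT is Pard6b, a fitted value against libraries at 0. The diamonds lie between -0.76 and 0.49.

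The chemokines Ccl5 and Ccl20, which the study used as read-outs of SF activation when it silenced the candidates, were measured in the same libraries, and both passed the rule in all 3 comparisons. Ccl20, which attracts lymphocytes and dendritic cells, was at 15, 12 and 10 in WT, 1439, 696 and 650 in untreated SFs and 150, 129 and 170 after treatment. Ccl5, which attracts T cells and monocytes, was at 3, 4 and 1, then 106, 128 and 53, then 17, 16 and 32. With infliximab they fell by 2.54 and 2.07 on the log2 scale (limma adjusted p = 0.0993 and 0.803). In edgeR both had an adjusted p under 0.05 in that comparison, as did 165 of 28540 genes. For the 5 candidates the intervals of the log2 fold change with infliximab versus untreated all held 0.

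For each candidate the genes with the most similar pattern over the 9 libraries are given as a description, since the libraries share groups and depths. Pearson's r of the log2 values was taken over the 8630 or 8631 other genes whose mean over the 9 libraries was no lower than 50. The most similar were Akna (0.99), Dstyk (0.95) and 6030442K20Rik (0.95) for Ascc3, and Vkorc1 (0.98), Gm10146 (0.97) and Gm21974 (0.97) for Sec62. Romo1 was followed by Klc4 (0.97), Fbxl6 (0.97) and Sh2b1 (0.94), where Klc4 is the kinesin light chain described above. For Kif5c they were Mfap1a (0.96), Plrg1 (0.95) and Dleu2 (0.95), and for Cdc42 Sf3b4 (0.97), Ostf1 (0.97) and Gm22027 (0.96). Between candidates, Ascc3 and Kif5c were the most alike, with r of 0.84 and of 0.83 without hTNFtg replicate 1, while Romo1 and Kif5c were at -0.59 and at -0.44 without it. Without that library the lowest r was -0.77, between Sec62 and Cdc42, a pair at -0.42 over all 9 libraries. Romo1 and Cdc42 turned from -0.16 to 0.75 without it.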

How the data were processed

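3′ mRNA libraries (QuantSeq, Ion Proton) of cultured SFs were analysed as deposited. The authors mapped reads to mm10 with TopHat2 and Bowtie2, counted them per gene with GenomicRanges, normalized the counts and tested them with DESeq, all within metaseqR. The normalization method and the versions are not given in the sources used here. As analysed, each gene has a score, the count the authors divided by 1 factor per library and rounded. In hTNFtg replicate 1 the signal the authors deposited is whole reads times a factor (100% of low values within 0.1 of a multiple), against 2.21% to 51.2% in the other libraries, where reads are approximate. The 24 per-sample columns of log2 and rpgm values, and the authors' own comparisons (fold changes and p-values), were not used. The 3 untreated hTNFtg columns, identical in both tables, were used once.

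Groups of 3 libraries were compared with limma 3.58.1 (lmFit, eBayes with trend; R 4.3.3) on log2(normalized count + 1), for every gene with a value above 0 in any of the 6 libraries, with Benjamini-Hochberg adjustment over all genes tested. edgeR 4.0.16 on approximate reads was an alternative. Intervals of limma are 95% intervals. The scripts were tested on simulated data. The 8 genes and all lists were chosen with earlier results of these data known. The text names all 8 genes, genes of the receptor and pathway lists past the rule, fixed partners, some cell type markers beside the results they move with, Ccl5 and Ccl20, and the 3 most similar genes of each candidate. Comparisons share libraries. A gene was called where limma's unadjusted P was below 0.05 and the log2 fold change reached 1 or -1.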

Additional observations from a re-analysis of the deposited data

How the results depend on the processing

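The fits were repeated with other pseudocounts, a filter on the mean normalized count (10), 2 other scalings (median ratios, quantiles), array weights, a robust prior, a replicate block, all 9 libraries together, edgeR on approximate reads, and without each library in turn. Of 287 refitted fold changes of the 6 detected genes, 275 kept direction and side of the rule, 11 turned sign and 1 newly passed the rule. Htr7 passed the rule against WT in every fit run, with log2 fold changes of -3.97 to -2.14 in hTNFtg and -3.21 to -1.87 with infliximab. Under the filter, Htr7 could not be tested between infliximab-treated and untreated SFs.

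With array quality weights, infliximab versus untreated gave -0.11 for Ascc3 and 0.24 for Cdc42. Leaving out 1 library turned the sign, in hTNFtg versus WT, of Ascc3 (range -0.47 to 0.15), Sec62 (-0.34 to 0.15) and Kif5c (-0.82 to 0.32). It did so with infliximab versus untreated for Ascc3 (-0.28 to 0.34), Kif5c (-1.07 to 0.065) and Cdc42 (-0.33 to 0.39), and with infliximab versus WT for Ascc3 (-0.40 to 0.073). All these values miss the rule, except that Kif5c with infliximab versus WT (-1.26 to -0.37) passed it without infliximab replicate 1. The genes past the rule therefore numbered 1 to 2 in infliximab versus WT, and stayed at 1 in hTNFtg versus WT and 0 in infliximab versus untreated. The cause was not tested.

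Of 31 calls on genes of the receptor, pathway and chemokine lists, 17 held without any 1 library, none turned sign, and 14 were lost in some fits. Lost in hTNFtg versus WT were Adcy7, Baiap2, Ddc, Htr1b, Iqgap1 and Was, with infliximab versus untreated Adcy6, Klc4 and Rhoa, and with infliximab versus WT Adcy7, Arhgef7, Ascc1, Fgd2 and Maob. Each of these fits has 5 libraries. Of the 17, 6 were lost under another setting: Fam134b with array weights, Pard6b, Slc18a1 and Tph2 (hTNFtg versus WT) with a pseudocount of 5, and Drd1 and Tph2 (infliximab versus WT) with that pseudocount and with edgeR. The other 11 held in every fit that gave a value.

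Deviations of log2 values from the group mean were correlated between libraries, over genes with a mean of at least 10. Same-numbered libraries had r of 0.29, -0.14 and 0.35 between WT and hTNFtg, and 0.10, -0.15 and 0.01 between WT and infliximab. Between hTNFtg and infliximab r was 0.07, 0.20 and 0.27. Differently numbered libraries ran from -0.49 to 0.24, -0.17 to 0.22 and -0.26 to 0.13 in the same order. All same-numbered values between hTNFtg and infliximab were positive, so r does not settle whether the numbers mark pairs. The main fits used no pairing. With the replicate block the genes past the rule were 1, 0 and 1, as without it, and the adjusted p of Htr7 was 0.478 and 0.407 against WT.

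With a floor of 1 read in place of 3, the receptor values above the floor rose from 5 to 7 of the 9 Htr7 libraries, with Drd2 and Drd3 at 0 of 9. Depth limits low genes in hTNFtg replicate 1 most.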
